A study of Mus musculus with 2 samples.

Results

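The cytosolic ribosome translates messenger RNA in the cytoplasm, and its protein components are encoded by genes named Rpl for the large subunit and Rps for the small subunit. The promoters of 83 such genes were examined among the 21938 protein-coding genes of the GENCODE M21 annotation. They were taken by symbol: Rpl or Rps with a number and an optional suffix, plus Rplp0, Rplp1 and Rplp2 of the ribosomal stalk and Rpsa, a small subunit protein also known as a laminin receptor. Of these, 46 encode large subunit proteins, the 3 stalk proteins included, 31 encode small subunit proteins, and 6 are paralogues of a member, written with an l after the number.

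Open chromatin was measured by DNase-seq, which sequences the ends of DNA fragments released from nuclei by DNase I. The tissue was the urinary bladder of B6CASTF1/J mice, an F1 hybrid of C57BL/6J and CAST/EiJ, all female and at an age of 4 days. The labels give 2 biological replicates in 1 group, from females that carry separate numbers but the same donor identifier, so there was no contrast between conditions and part of the spread between samples may be technical. Whole tissue was used, so fewer cells with an open promoter and less opening per cell cannot be told apart.

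Ribosomal protein genes are transcribed in nearly all cells. Their promoters usually lack a TATA box, and transcription starts within a run of pyrimidines that becomes the terminal oligopyrimidine tract of the messenger RNA, through which the mTOR kinase and the RNA-binding protein Larp1 control translation. ETS factors, YY1, SP and KLF factors and proteins that bind a CG-rich palindrome, such as ZBTB33 and in mouse cells Banp, are known regulators of promoters of this housekeeping kind.

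The letters that such descriptions point to could be read at the annotated starts of many members. The following windows of 41 bases, centred on the start site (the 21st base), were chosen because they show the length and place of the pyrimidine run, which is in capitals. They were read on the coding strand of mm10 (GRCm38), at chr14:24490698-24490738 (+) for Rps24, chr1:39367822-39367862 (+) for Rpl31, chr15:5116625-5116665 (+) for Rpl37 and chr9:64173355-64173395 (+) for Rpl4.
Rps24: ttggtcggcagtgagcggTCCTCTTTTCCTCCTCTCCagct
Rpl31: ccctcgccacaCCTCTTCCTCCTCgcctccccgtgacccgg
Rpl37: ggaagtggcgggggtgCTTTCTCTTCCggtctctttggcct
Rpl4: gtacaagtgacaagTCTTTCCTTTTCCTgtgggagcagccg
At this start site, that of the best-ranked GENCODE transcript, all 4 start at a C inside a run of pyrimidines. The run was 19 bases long at Rps24, 14 at Rpl4, 13 at Rpl31 and 11 at Rpl37. The start in the RefSeq annotation lay elsewhere. It was an A at 35 bp for Rps24, an A at -32 bp for Rpl37, a G at 12 bp for Rpl4 and a C at 9 bp for Rpl31.

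The palindrome searched for ZBTB33 stood in 7 member promoters, among them Rpl10a, Rpl17, Rpl26, Rpl4, Rps28 and Rps6. The next windows show it at 5 of them because they include promoters with and without a footprint, a short stretch that DNase I cut less than its surroundings. In the Rpl10a window it is the stretch from -34 to -25 bp, where the capitals begin. Capitals mark the bases that lay under a footprint in both replicates. The windows lie at chr17:28328509-28328568 (+) for Rpl10a, chr11:68901515-68901574 (+) for Rpl26, chr4:86857387-86857443 (-) for Rps6, chr17:33824537-33824588 (-) for Rps28 and chr9:64173107-64173166 (+) for Rpl4.
Rpl10a: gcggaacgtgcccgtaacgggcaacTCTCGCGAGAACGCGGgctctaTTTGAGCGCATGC
Rpl26: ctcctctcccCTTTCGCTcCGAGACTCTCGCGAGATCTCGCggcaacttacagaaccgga
Rps6: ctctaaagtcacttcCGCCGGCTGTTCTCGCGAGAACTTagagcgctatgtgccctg
Rps28: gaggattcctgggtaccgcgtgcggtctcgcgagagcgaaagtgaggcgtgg
Rpl4: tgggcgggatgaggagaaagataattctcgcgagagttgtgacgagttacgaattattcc
In the first 3 windows the capitals covered the whole palindrome, whereas at Rps28 a footprint lay over it in replicate 1 alone and at Rpl4 in neither replicate. The Rpl4 palindrome, from -243 to -234 bp, lay close to the start of Zwilch on the opposite strand, at -271 bp. At Rps28 it stood from -1 to 8 bp, with the opposite-strand start of Ndufa7 at -10 bp. In these 2 windows it cannot be assigned to a single gene.

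ETS factors bind around the core GGAA, and YY1 binds around ATGG. The next windows were chosen because the searched string, CCGGAAG for ETS (Rpl15, Rps21, Rps3a1 and Rpl31) and AAGATGGC for YY1 (Rpl7l1, Rpl23a and Rps27), lay under a footprint in both replicates, with capitals as before. They lie at chr14:18271112-18271168 (-) for Rpl15, chr2:180257328-180257384 (+) for Rps21, chr3:86142661-86142690 (-) for Rps3a1, chr1:39367846-39367875 (+) for Rpl31, chr17:46782618-46782647 (-) for Rpl7l1, chr11:78183529-78183558 (-) for Rpl23a and chr3:90213690-90213747 (-) for Rps27.
Rpl15: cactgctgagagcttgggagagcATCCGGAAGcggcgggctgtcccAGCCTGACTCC
Rps21: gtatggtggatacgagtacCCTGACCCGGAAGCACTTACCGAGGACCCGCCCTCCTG
Rps3a1: GAGattcttAAAGcCGGAAGGGCGAAagag
Rpl31: GCCTCCCCGTGACCCGGAAgttgtacggct
Rpl7l1: tgaagcaccggaAAGATGGCGGAGgaaggg
Rpl23a: tccttttcagccaagATGGCGCCGAaagcG
Rps27: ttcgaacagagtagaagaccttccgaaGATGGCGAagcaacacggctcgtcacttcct
The capitals covered the whole string at Rpl15, Rps21 and Rpl7l1, all but an end letter at Rps3a1 and Rpl31, and the ATGG core with its neighbours at Rpl23a and Rps27. The Rpl15 string, from -76 to -70 bp, lay next to the opposite-strand start of Nkiras1, at -69 bp. It cannot be assigned to Rpl15 alone.

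Nearly all ribosomal protein genes had open promoters, and their peaks were mostly tall. A promoter peak, overlapping the 500 bp on either side of any annotated transcription start site (TSS), was called in both replicates at 82 of the 83 genes (98.8%), where 13670 of all protein-coding genes (62.3%) had one. Each replicate taken singly also had 82, against 65.4% of all protein-coding genes in replicate 1 and 64.7% in replicate 2. Those 13670 are called open genes below, and they include the 82 members; shares of members and of these genes are set side by side as descriptions, with no test. In the stricter of the deposited peak lists 80 of the 83 had a peak in both replicates, against 55% of all protein-coding genes. All 77 members that are not paralogues had a peak in the stricter lists of both replicates.

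The height of a peak is the signal that the authors deposited, on a scale not given here. The tallest promoter peak had a median height over the 82 genes of 3.83 in replicate 1 and 2.83 in replicate 2, against 2.57 and 1.87 over the open genes. The median of the mean of both replicates was 3.34 for the members and 2.23 for the open genes. Of the 82 members, 66 (80.5%) lay above that median of the open genes, which by construction 50% of open genes do. Above the limit of the tallest 10% of open genes, at a mean height of 4.79, lay 21 members (25.6%). In both replicates the heights of the members lay above those of the open genes over most of the range, while Rpl10l and Rpl39l stood among the lowest open genes and the 2 distributions met at the tallest peaks.

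**Figure D1:**
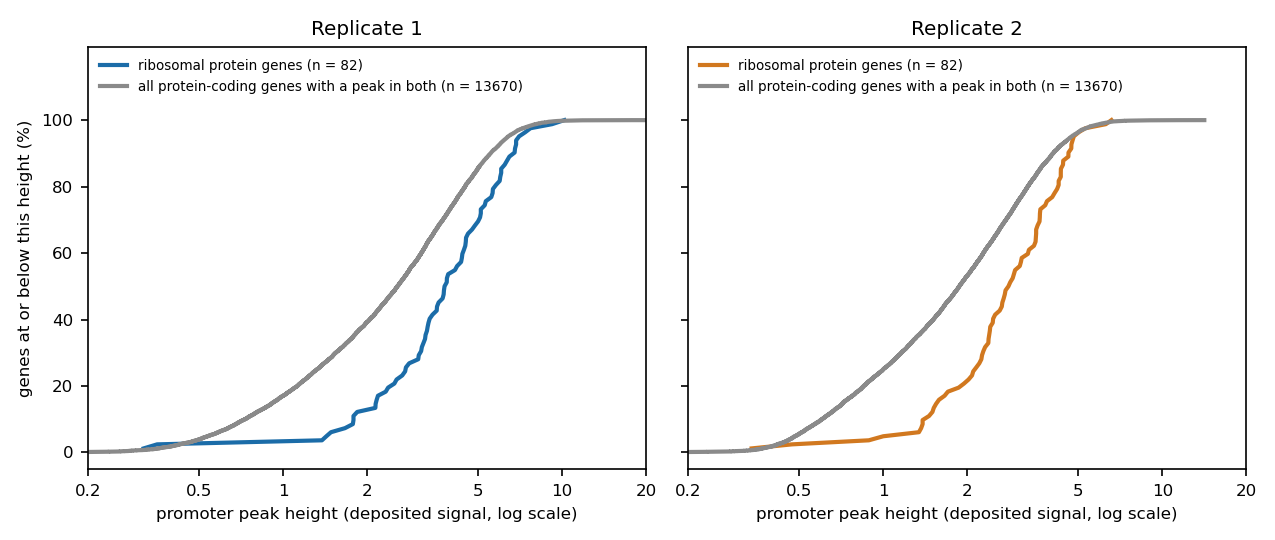
Share of genes (y axis, %) with a tallest promoter peak at or below a given height (x axis, deposited signal, log scale) in replicates 1 and 2, for the 82 ribosomal protein genes with a promoter peak (coloured) and the 13670 open protein-coding genes (grey). The coloured line lies to the right of the grey line over most of the range, with medians of 3.83 and 2.83 for the members and 2.57 and 1.87 for the open genes.

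The 4 tallest peaks belonged to large subunit and stalk genes. Rpl7a, a large subunit gene at chr2:26910764-26913318, stood at 9.20 in replicate 1 (95% exact Poisson interval 8.80 to 9.62) and 6.58 in replicate 2 (6.25 to 6.91), a mean of 7.89 ± 1.86 (SD, n = 2). Rplp0, which anchors the stalk of the large subunit (chr5:115559467-115563727), reached 10.2 in replicate 1 (9.76 to 10.6) and 5.30 in replicate 2 (5.01 to 5.60). These intervals cover counting error only, and in both genes they leave the replicates well apart. Heights of open genes were lower in replicate 2 in general, with a median log2 ratio of replicate 2 to replicate 1 of -0.41. Centred on that median, the ratio was -0.07 at Rpl7a and -0.53 at Rplp0. The SDs given with mean heights include this shift of the whole library. Rpl7a was taller than 99.6% of open genes and Rplp0 than 99.5%, and the order of these 2 genes was not the same in the replicates.

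Rpl23, whose product also binds the p53 regulator MDM2, stood at 7.70 and 6.27 in replicates 1 and 2. Rpl9 followed with 7.37 and 4.61. Rpl22l1, the paralogue of Rpl22, had 7.01 and 4.82. In mean height Rpl23 exceeded 98.8% of open genes, Rpl9 97.0% and Rpl22l1 96.7%. Rpl14 had 6.47 and 5.02, and Rpl37, the gene shown above with a run of 11 pyrimidines, had 6.76 and 4.61. Of the small subunit, Rps16 had 6.78 and 4.77, Rps3a1 had 6.84 and 3.86, and Rps28 had 6.35 and 4.33. In replicate 1 each of these 10 genes was taller than in replicate 2, as were 80 of the 82 members.

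At the other end, each of the lowest members that are not paralogues still exceeded at least 25.5% of open genes in mean height. Rpl23a, which lies at the exit of the nascent peptide tunnel, had a height of 1.49 in replicate 1 and 0.888 in replicate 2. Rpl6 had 1.43 and 1.00, and Rps4x, the X-linked gene of a small subunit protein, had 1.38 and 1.37. Rpl23a was taller than 25.5% of open genes, Rpl6 than 26.3% and Rps4x than 30.2%. Rpl39 had 1.78 and 1.34, and Rps27 had 1.79 and 1.46. Rpl4 had 1.79 and 1.50, and Rps26 had 1.84 and 1.58. These 4 genes were taller than 35.0% (Rpl39) to 38.5% (Rps26) of open genes, so all 7 lay below the median of open genes.

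**Figure D2:**
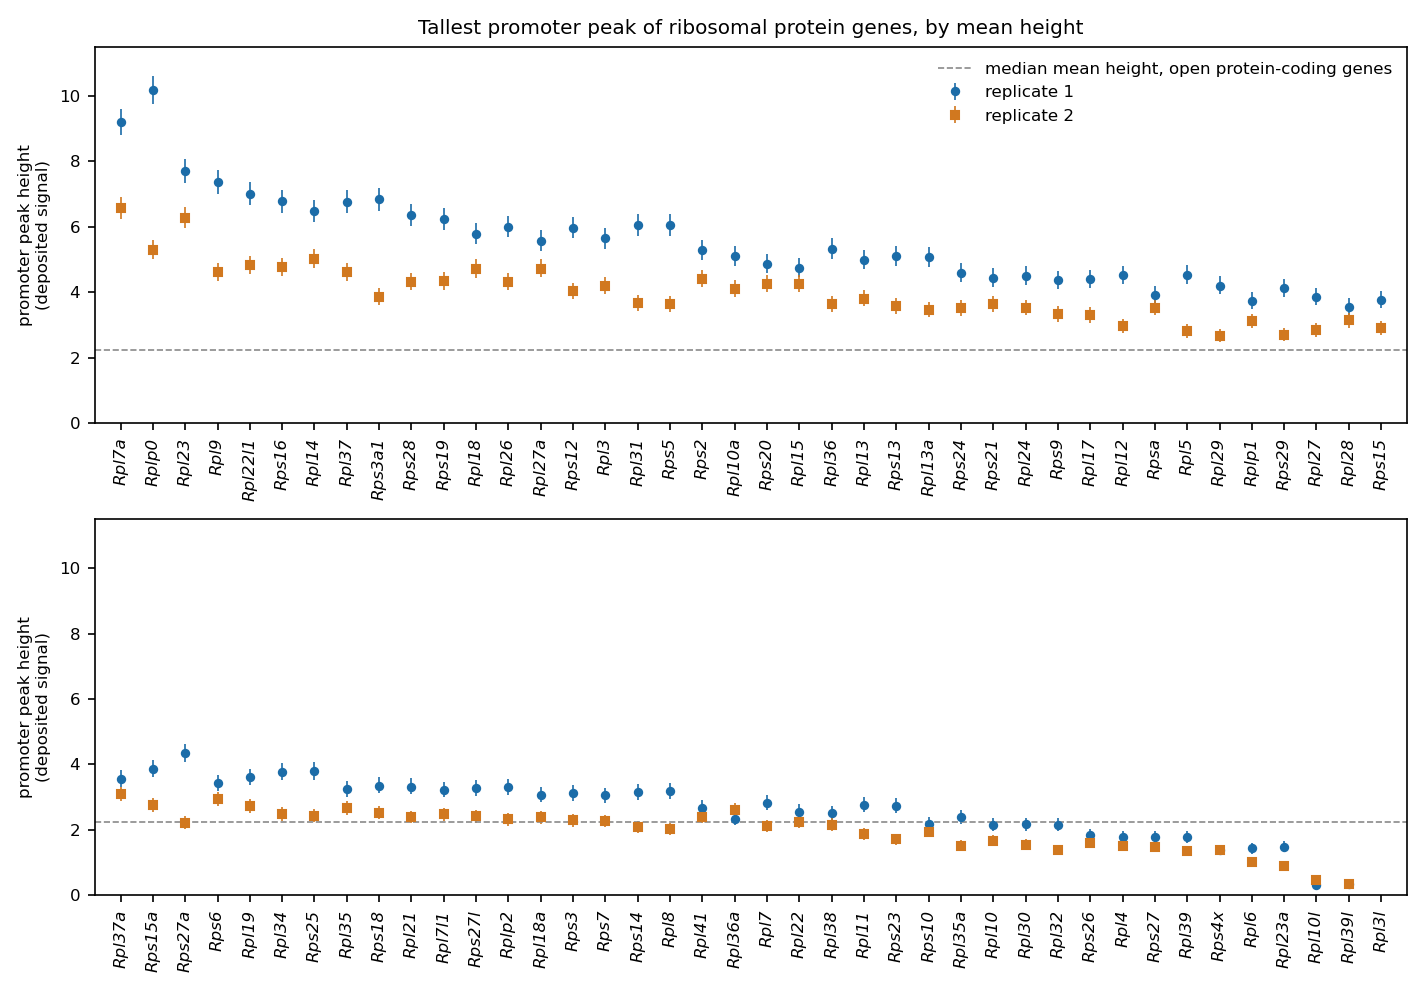
Height of the tallest promoter peak (y axis, deposited signal) of ribosomal protein genes (x axis), in order of mean height, in replicate 1 (circles) and replicate 2 (squares), with bars for the exact Poisson interval at a confidence level of 95%, which covers counting error only, and a dashed line at the median mean height of open genes, 2.23. Heights run from Rpl7a at 9.20 and 6.58 to Rpl23a at 1.49 and 0.888, followed after a gap by Rpl10l and Rpl39l, and Rpl3l has no peak.

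Large and small subunit genes had medians close to each other. The median mean height was 3.35 over the 46 large subunit genes and 3.42 over the 31 small subunit genes, with ranges of 1.19 to 7.89 and 1.37 to 5.77. In the stalk, Rplp0 was far taller than Rplp1, with 3.73 in replicate 1 and 3.11 in replicate 2, and Rplp2, with 3.30 and 2.32, whose products bind to Rplp0 as dimers.

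The 6 paralogues spread over the whole range of heights. Rpl3l, a form of Rpl3 known from heart and skeletal muscle (chr17:24727820-24736143), was the only member with no promoter peak in either replicate, and no base of its promoter was listed at a false discovery rate up to 0.05 in either replicate. Rpl3 itself stood at 5.65 in replicate 1 and 4.20 in replicate 2. Rpl10l, a retrogene known from the testis (chr12:66283379-66284401), had 0.317 and 0.471, against 2.14 and 1.66 for Rpl10. Rpl39l, also known from the testis (chr16:10170226-10174911), had 0.354 and 0.338, against 1.78 and 1.34 for Rpl39. These 3 paralogues were below their partners in both replicates, and none of them had a promoter peak in the stricter list of either replicate. The lowest listed false discovery rate was 0.00445 in replicate 1 and 0.00354 in replicate 2 at Rpl10l, and 0.0189 and 0.0272 at Rpl39l.

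The other 3 paralogues had heights above their partners. Rpl22l1, at 7.01 and 4.82, stood above Rpl22, at 2.55 and 2.25. Rpl7l1, whose product acts in the assembly of the large subunit, had 3.23 and 2.47, where Rpl7 had 2.83 and 2.10. Rps27l, a p53 target, had 3.28 and 2.41, where Rps27 had 1.79 and 1.46. The order within each of these pairs was the same in both replicates, and with 2 samples in 1 group no test of a pair was made. The heights of Rpl7 came from different peaks, centred -408.5 bp from the start of its best-ranked transcript in replicate 1 and 251.5 bp in replicate 2. Its Poisson intervals, 2.61 to 3.07 and 1.92 to 2.29, overlapped those of Rpl7l1, 2.99 to 3.48 and 2.27 to 2.68.

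Members on chromosome X had lower peaks than those on autosomes, as X-linked genes did in general in these female samples. The 4 X-linked members had a median mean height of 1.73, against 3.42 for the 73 autosomal members that are not paralogues. Over open genes the medians were 1.14 on chromosome X and 2.29 on autosomes. Rpl36a was the tallest of the 4, with 2.33 in replicate 1 and 2.61 in replicate 2. Rpl10 had 2.14 and 1.66, and Rpl39 and Rps4x are given above. All 4 lay above the median of X-linked open genes in mean height, and 1 of the 4, Rpl36a, above the median of all open genes.

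Heights of the members ranked alike in the replicates. Across the 82 genes, log2 heights correlated with Pearson's r = 0.963 and heights with Spearman's rho = 0.951, where Pearson's r over the open genes was 0.970; these are relations across genes of the same libraries, and genes are not independent replicates. The ratio of replicate 2 to replicate 1, on the log2 scale, was negative for 80 of the 82 members, against 93.1% of open genes, so the direction of the members was that of most open genes. Its median was -0.43 for members and -0.41 for open genes. Centred on the open genes, the median ratio of the members was -0.02 with an SD of 0.24 over genes, against an SD of 0.27 over open genes.

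Among the lowest ratios were those of Rps27a, which encodes a fusion of ubiquitin and a small subunit protein, at -0.98 and of Rplp0 at -0.94. Rps27a had 4.34 in replicate 1 and 2.21 in replicate 2. The highest were Rpl10l at 0.57, Rpl36a at 0.16 and Rps4x at -0.01. Rpl10l and Rpl36a were the only members that were taller in replicate 2, and the Rpl10l peak was among the lowest of the list. The 4 X-linked members had a median centred ratio of 0.22, and X-linked open genes had 0.14. Whether any of these differences exceeds the spread between animals was not tested.

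Most member peaks were centred close to the annotated start. The centre of the tallest peak had a median position of -8.5 bp in replicate 1 and -4.5 bp in replicate 2 from the reference TSS, the start of the best-ranked transcript, where negative values are upstream. Over open genes it was -27.5 bp and -30.5 bp. In 59 of 82 members (72.0%) the mean of both centres lay within 100 bp of the reference TSS, against 54.7% of open genes. The share was higher still among open mitochondrial ribosomal protein genes (80.8%) and open proteasome subunit genes (75.7%). Rpl7 counts among the 59 although its tallest peak was centred at -408.5 bp in replicate 1 and at 251.5 bp in replicate 2.

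Some peaks away from the reference TSS lay near another annotated start. At Rpl18 the tallest peak was centred 2603.5 bp downstream in replicate 1 and 2583.5 bp in replicate 2, and the start in the RefSeq annotation of GRCm38 lay 2614 bp downstream. At Rpl35 the centres were 453.5 bp and 443.5 bp downstream, with the RefSeq start at 493 bp, and at Rps26 they were 276.5 bp and 266.5 bp, with the RefSeq start at 241 bp. RefSeq starts were matched for 63 members. Of the 17 members with a RefSeq start whose peak lay over 100 bp from the reference TSS, 12 had it nearer to the RefSeq start, and the median distance of the 17 was 229.5 bp from the reference TSS and 85.5 bp from the RefSeq start. The 17 were picked by their distance from the reference TSS, so a shorter distance to any other start was favoured. Over the 62 open members with a RefSeq start, the median position of the peaks was -46 bp from the RefSeq start and -10 bp from the reference TSS.

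Some promoters held a pair of separate peaks. Rps19, a gene mutated in the human Diamond-Blackfan anaemia, had its tallest peak centred at -260.5 bp in both replicates, with heights of 6.23 in replicate 1 and 4.33 in replicate 2. Its peak nearest to the reference TSS was centred at 199.5 bp and 209.5 bp, with heights of 4.89 and 4.09. Several promoter peaks were called at 30 members (36.6%) in replicate 1 and 34 (41.5%) in replicate 2, and at 53.2% and 55.5% of open genes. The shares were 30.8% and 35.9% for open mitochondrial ribosomal protein genes, and 35.1% in both replicates for open proteasome subunit genes. The median width of the tallest peak was 220 bp in replicate 1 and 200 bp in replicate 2 for members, and 240 bp and 220 bp for open genes.

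At 11 members another protein-coding gene started within 500 bp of the reference TSS, on the opposite strand in 10 of them. The 11 are 13.3% of the members, against 13.7% of open genes and 9.18% of all protein-coding genes with such a neighbour. Among the 11 was the tallest gene, Rpl7a, with Med22, a subunit of the Mediator complex, 195 bp upstream. Rpl9 faced Lias, the lipoic acid synthase gene, 53 bp upstream, and Rps28 faced Ndufa7, a gene of respiratory complex I, 10 bp upstream. Rpl4, whose tallest peak was centred at -464.5 bp and -454.5 bp, had the start of Zwilch 271 bp upstream. In replicate 2 that peak was the only promoter peak of Rpl4. In replicate 1 its peak nearest to the reference TSS, centred at 105.5 bp, had a height of 1.08. A peak, footprint or searched string in such a window cannot be assigned to a single gene. The median mean height was 3.28 for the 11 genes and 3.39 for the other 66 members that are not paralogues. An opposite-strand long noncoding RNA started within 500 bp of the reference TSS at 7 members (8.43%), against 6.4% of open genes and 4.6% of all protein-coding genes. Among the 7 were Rps2 with Snhg9, a host of small nucleolar RNA, Rpl22l1 and Rps3a1.

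Counted over all annotated starts of a gene, the median number of footprints per promoter was 7 in replicate 1 and 5 in replicate 2 for the members, and 7 and 5 for the open genes. Counted at the reference TSS alone, the medians were 7 and 5 for the members, against 6 and 4 for the open genes. The deposited footprints carry a listed value of 0.01 throughout, so they could not be ranked. Within 500 bp of the reference TSS, members held 578 footprints in replicate 1 and 421 in replicate 2, or 7.05 and 5.13 per promoter, against 5.87 and 4.27 per promoter of open genes. Their median widths were 11 bp and 10 bp. Of these footprints, 50.2% and 69.6% were overlapped by a footprint of the other replicate, against 49.5% and 71.0% over open genes, so many single footprints were not found again.

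Footprint counts differed widely among members. The most footprints were counted at Rpl18, with 15 in replicate 1 and 10 in replicate 2, of which 6 and 4 lay at the reference TSS. Rps14 had 15 and 8, Rpl10 had 13 and 9, Rpl7 had 10 and 12, and Rps19 had 10 and 11. Rpl3l, the member without a promoter peak, had 0 in both replicates. Among the 82 open members the fewest were at Rpl39l, with 0 and 1, Rpl28, with 3 and 2, and Rpl14, with 4 and 2. Rpl41, Rps4x and Rpl10l shared the next place with 4 and 3 each. Rpl14 was among the 10 tallest promoters, whereas Rpl10 was taller than only 42.4% of open genes.

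**Figure D3:**
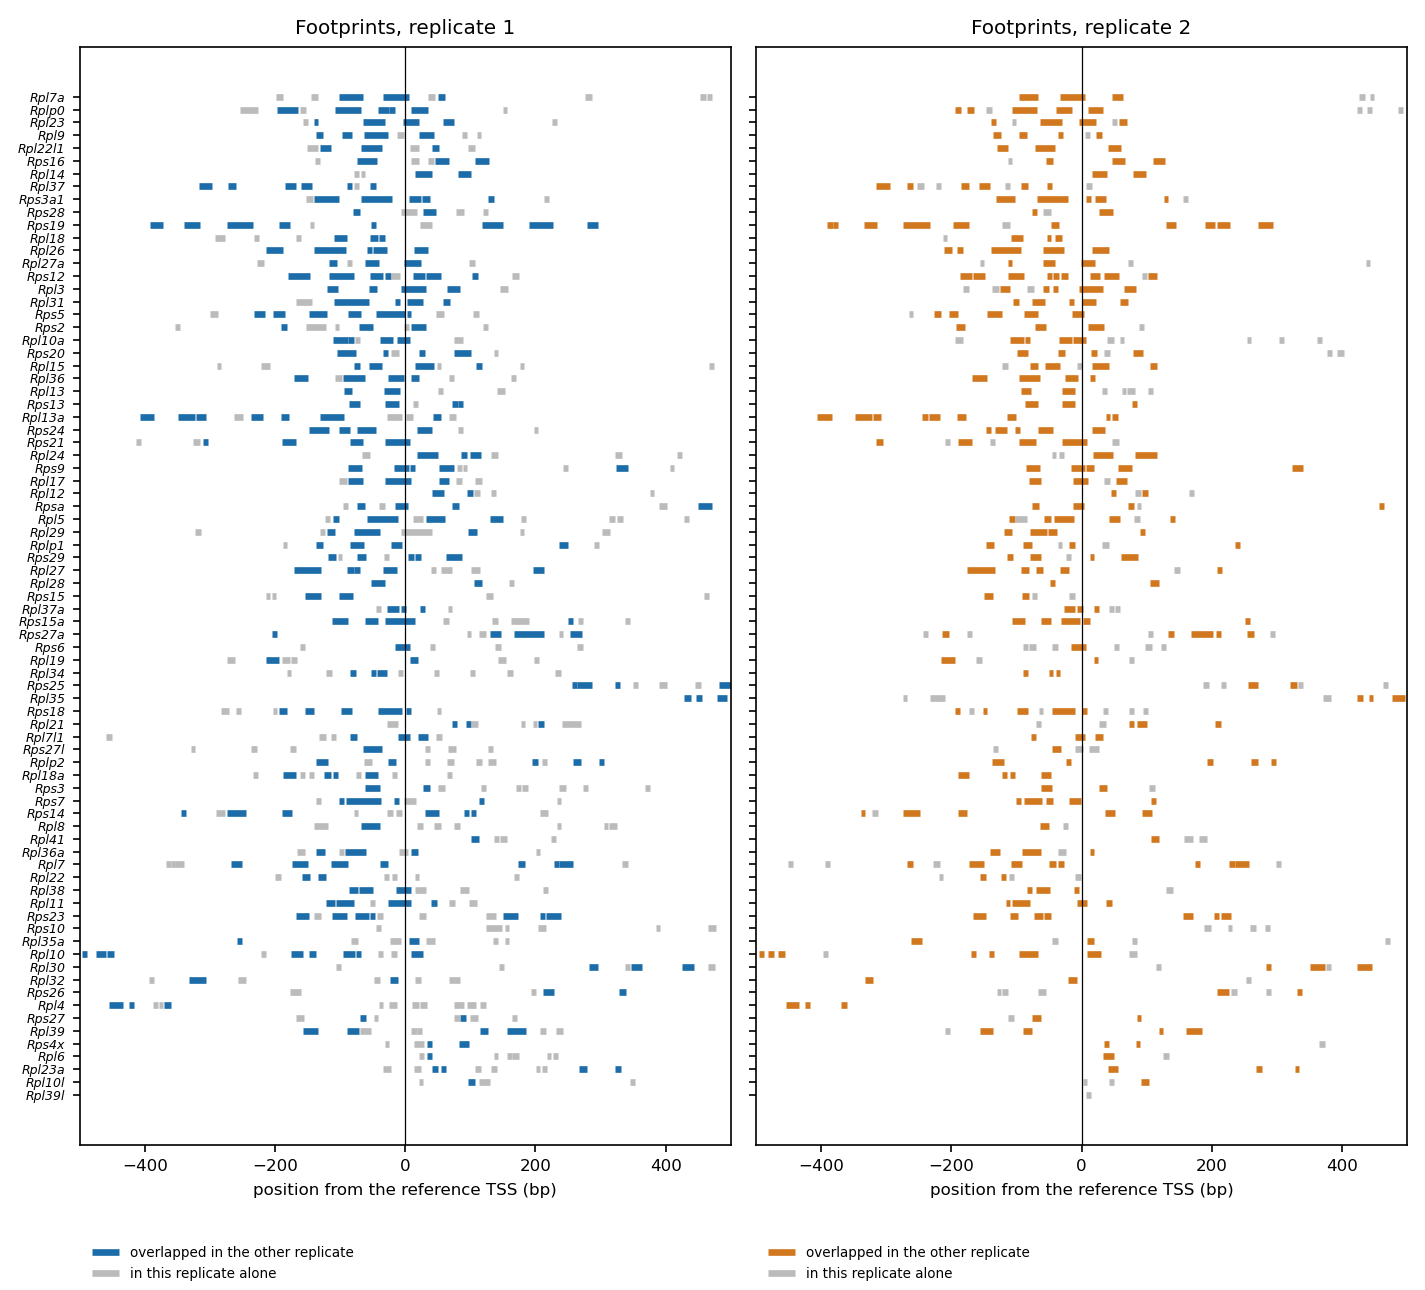
Position of each footprint (x axis, bp from the reference TSS, negative upstream) in member promoters (rows, tallest mean height at the top), in replicate 1 on the left and replicate 2 on the right; coloured marks are overlapped in the other replicate and grey marks are not. Marks gather on both sides of the start, and over all 82 promoters the overlapped ones were 50.2% of 578 footprints in replicate 1 and 69.6% of 421 in replicate 2.

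From -100 bp to 300 bp around the start, members held more footprints per promoter than open genes in every bin of 50 bp and in both replicates. From 300 to 500 bp downstream no bin was higher for members in both. Between 100 and 150 bp downstream of the reference TSS, members had 0.683 footprints per promoter in replicate 1 and 0.280 in replicate 2, where open genes had 0.299 and 0.153. In the first 50 bp downstream the values were 0.890 and 0.634 for members and 0.635 and 0.513 for open genes. Just upstream, between -50 bp and the start, they were 0.939 and 0.768 for members, against 0.780 and 0.659. The median position was 7 bp in replicate 1 and -20.5 bp in replicate 2 for members, and -26 bp and -34.5 bp for open genes. The direction was the same in both replicates; starts that differ between annotations move these positions, and their part was not tested.

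**Figure D4:**
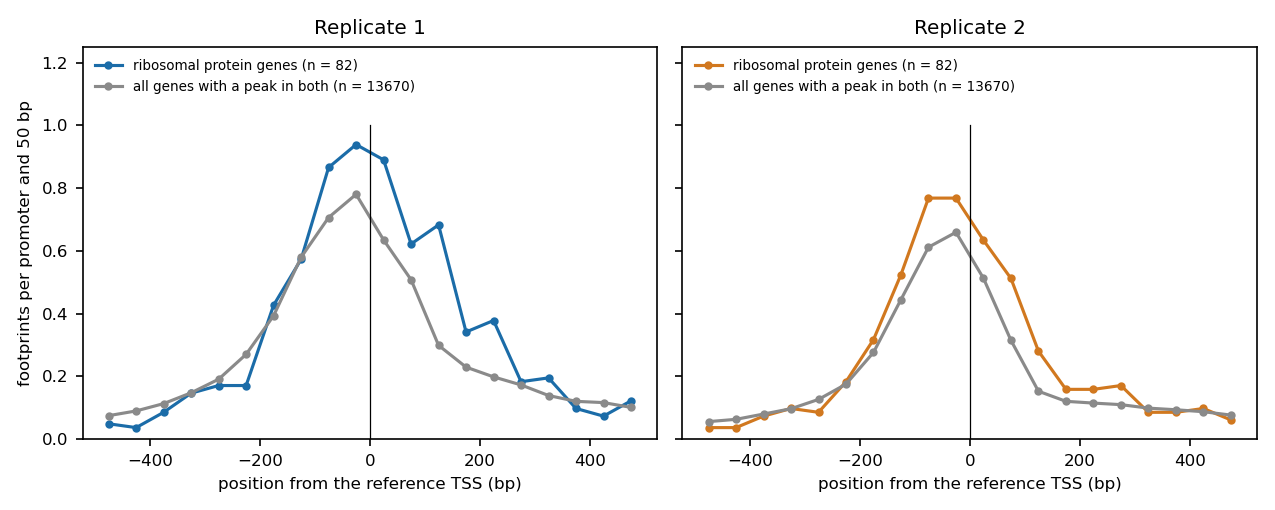
Footprints per promoter in bins of 50 bp (y axis) by position from the reference TSS (x axis, bp), for the 82 members (coloured) and the 13670 open genes (grey), in replicates 1 and 2. The coloured line is above the grey line from -100 bp to 300 bp in both replicates, with 0.939 and 0.768 against 0.780 and 0.659 just upstream of the start.

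Pyrimidine runs and a C at the start stood at a larger share of ribosomal protein genes than of all protein-coding genes. A run of at least 8 pyrimidines within 20 bp of the reference TSS on the coding strand was present at 30 members (36.1%), against 15.7% of all protein-coding genes. At the RefSeq start it was present at 29 of the 63 members with one (46.0%), against 15.8% of all genes with one, and at either start at 48 of the 83 (57.8%), against 20.2%. The shorter pattern of CTTT between a pair of pyrimidines was present at 13 members (15.7%), against 4.67% of all genes, and at the RefSeq start at 21 members (33.3%), against 4.75%. The first base was a C at 26 members (31.3%), against 17.5%. The string TATAAA, searched on the coding strand from 40 to 15 bp upstream, was found at 0 members, against 0.966% of open genes and 2.48% of all genes.

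Motif strings were searched on both strands from 250 bp upstream to 50 bp downstream of the reference TSS. At 11 members the tallest peak was centred beyond 200 bp from that TSS in both replicates, so the window can miss it. The RefSeq start lay over 100 bp from the reference TSS at 12 members. The shares below were taken at the reference TSS alone. CCGGAAG (ETS) was held by 26 members (31.3%), against 16.5% of open genes and 11.2% of all protein-coding genes. AAGATGGC (YY1) was held by 6 members (7.23%), against 4.30% of open genes and 3.1% of all genes. The ZBTB33 palindrome shown above was held by 7 members (8.43%), against 0.936% of open genes and 0.611% of all genes. GGGCGG (SP/KLF) was held by 43 members (51.8%), fewer than among open genes with 64.3% and more than among all genes with 45.5%. The promoters of the members had a median GC content of 55.8%, against 60.8% for open genes, and a ratio of observed to expected CpG of 0.845, against 0.752.

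Among the remaining strings, CCAAT alone was held by more than 9 members. The NRF1 string was held by Rpl10a and Rpl37a (2.41%), against 1.85% of open genes and 1.21% of all genes. The ZNF143 string was held by Rpl23a and Rps27a (2.41%), against 0.666% of open genes and 0.438% of all genes. CACGTG (E-box), the site of MYC and related factors, was held by 9 members (10.8%), close to the 9.84% of open genes, against 7.73% of all genes. TGACGTCA (CRE), the site of CREB factors, was held by 5 members (6.02%), against 3.33% of open genes and 2.48% of all genes. CCAAT, bound by NF-Y, was held by 25 members (30.1%), less than the 37.9% of open genes and the 38.6% of all genes. Matches of different strings overlapped at 2 members, ETS with SP/KLF at Rpl8 and CCAAT with SP/KLF at Rpl10. No member held both exact strings CCGGAAG and AAGATGGC, though in the Rpl7l1 window shown above the core GGAA runs into the YY1 string. Matches of the same string overlapped for ETS at Rps14 and for SP/KLF at Rps14 and Rps20. No shares over open genes stand beside these overlaps, so they describe the members alone.

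**Figure D5:**
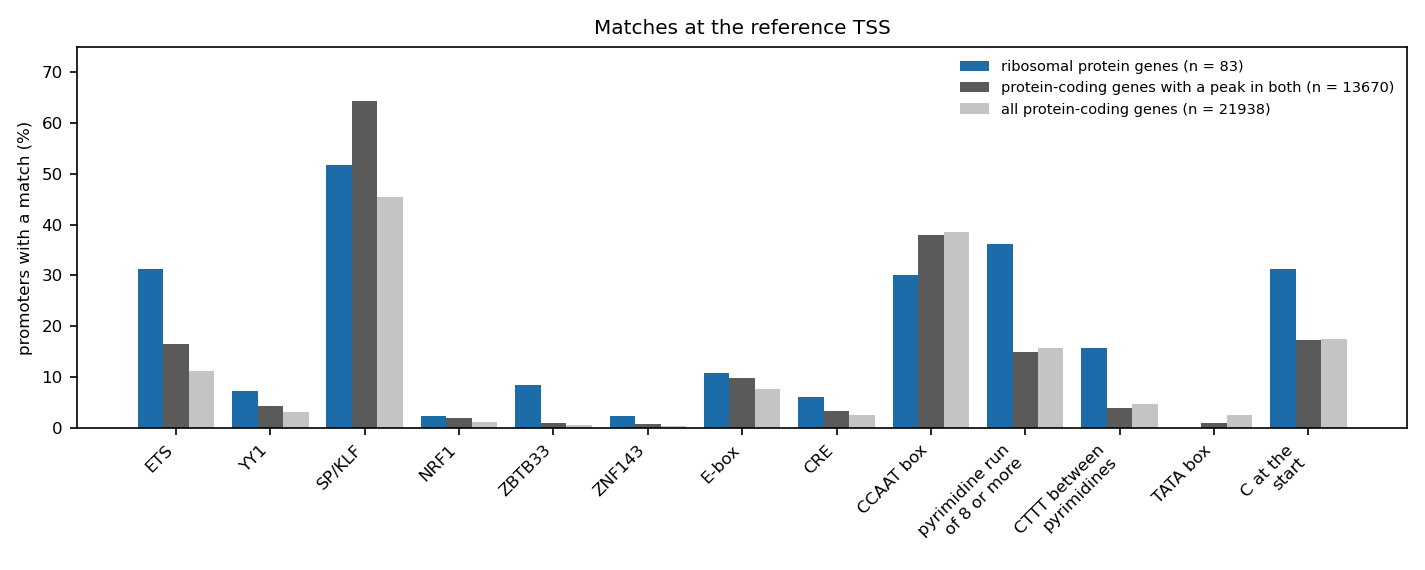
Share of promoters with a match (y axis, %) for each searched string or start feature (x axis), for the 83 ribosomal protein genes, the 13670 open genes and all 21938 protein-coding genes. The members have the tallest bar for ETS (31.3%, against 16.5% and 11.2%), ZBTB33 (8.43%, against 0.936% and 0.611%) and the pyrimidine run (36.1%, against 14.9% and 15.7%), and the lowest bar for CCAAT (30.1%, against 37.9% and 38.6%).

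For ETS and SP/KLF, the share of matches under a footprint was close to that at open genes. An ETS match was under a footprint in both replicates, by at least 50% of its letters, at 7 members: Rpl15, Rpl31, Rpl37, Rpl6, Rps21, Rps3a1 and Rps7. That is 26.9% of the members with a match, against 26.2% of open genes with a match. For SP/KLF the count was 22, or 51.2% of the members with a match, against 51.1%. For the ZBTB33 palindrome it was 5, or 71.4%, against 53.9%, and among the 5 were Rpl10a, Rpl17, Rpl26 and Rps6. For YY1 it was 3 of 6 members, Rpl23a, Rpl7l1 and Rps27, against 17.0% of open genes with a match.

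Heights at the promoters shown with a footprinted palindrome were above the median of open genes, as were those of 80.5% of the open members. Rps28, where the palindrome was under a footprint in replicate 1 alone, had 6.35 in replicate 1 and 4.33 in replicate 2. Rpl26 had 6.00 in replicate 1 and 4.33 in replicate 2, Rpl10a had 5.11 and 4.11, and Rps6, the target of the S6 kinases, had 3.43 and 2.94. Both NRF1 matches were under a footprint in both replicates, as they were at 92.5% of open genes with a match. Of the 5 members with a CRE match, 3 (60%) had it under a footprint in both replicates, Rpl13, Rpl27a and Rps9, against 71.9% of open genes with a match. The CRE match was under a footprint in replicate 1 alone at Rps29 and in neither replicate at Rpl26. The ZNF143 match was under a footprint in neither replicate at both members that held it, and 22.0% of open genes with a match had it under a footprint in both replicates. Any of ETS, YY1 or SP/KLF was under a footprint in both replicates at 28 members (33.7%), against 35.7% of open genes and 22.3% of all protein-coding genes. A match is a string of letters of the reference genome, in which alleles from CAST/EiJ are not represented, and which factor, if any, bound there was not tested.

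Other genes of the translation apparatus were open as well. The 4 genes of ribosomal proteins with other names all had a peak in both replicates, with a median mean height of 5.01. Rpl36al had a mean height of 6.40 ± 1.24 (SD, n = 2), and Fau, which encodes a fusion of a ubiquitin-like protein and a small subunit protein, had 5.73 ± 1.52. Of 15 translation factors and other genes with terminal oligopyrimidine messenger RNAs, all 15 were open, with a median mean height of 4.44, led by Eef2, elongation factor 2, at 7.32 ± 1.22, Pabpc1, the poly(A)-binding protein, at 6.75 ± 1.01, and Tpt1 at 5.65 ± 1.24. The median of the 82 ribosomal protein genes, 3.34, lay below the medians of both lists.

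Genes that act on the ribosome from outside had medians between that of open genes, 2.23, and that of the 82 ribosomal protein genes, 3.34. All 16 genes found for ribosome assembly and RNA polymerase I were open, with a median of 2.52, and the tallest were Rrs1 at 5.48 ± 1.26, Nop56 at 5.29 ± 1.50 and Ubtf at 4.52 ± 1.21. All 13 genes of the mTOR pathway and MYC were open, with a median of 2.79, led by Eif4ebp2 at 6.25 ± 1.30, Rps6kb1 at 5.65 ± 0.957 and Rheb at 4.77 ± 0.108. Larp1 stood at 1.24 ± 0.106 and Myc at 1.63 ± 0.166.

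Other housekeeping complexes were also open, at medians below the 3.34 of the 82 ribosomal protein genes. All 78 mitochondrial ribosomal protein genes were open, with a median mean height of 2.69, led by Mrpl17 at 6.65 ± 1.59, Mrpl2 at 6.47 ± 1.87 and Mrpl49 at 5.73 ± 1.52. Mrpl49 and Fau, neighbours on chromosome 19, had 1 promoter peak each per replicate and the same heights, 6.80 in replicate 1 and 4.65 in replicate 2. A shared peak was thus probably counted for both genes. Of 39 proteasome subunit genes, 37 were open, with a median of 2.99, led by Psmb2 at 6.28 ± 1.85, Psmc5 at 5.44 ± 1.00 and Psmd2 at 4.97 ± 1.51; Psmb11, known from the thymus, had no peak in either replicate. Above the limit of 4.79 lay 25.6% of the open ribosomal protein genes, 5.13% of the mitochondrial ribosomal and 10.8% of the proteasome genes.

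The libraries and the tissue label were checked as follows. Replicate 1 had 96518 peaks with a median height of 0.512 and 217816 footprints, and replicate 2 had 122870 peaks with a median of 0.321 and 189794 footprints. Heights came in whole multiples of a step, which was 0.00466 in replicate 1 and 0.00417 in replicate 2. How reads that map to several places were treated, such as those from the many processed pseudogene copies of ribosomal protein genes, is not known here. All 5 smooth muscle markers (Myh11 the tallest, at 2.42 ± 0.257) and all 4 fibroblast markers (Col1a1 the tallest, at 2.78 ± 0.133) had a promoter peak in both replicates, as did 62.3% of all protein-coding genes. Of the 6 urothelium markers, Upk1b and Upk3a had one in both replicates, at mean heights of 0.744 and 0.724, and Upk1a and Trp63 in neither. Upk2 had one in replicate 1 alone and Krt5 in replicate 2 alone. None of the 6 had a promoter peak in the stricter lists of both replicates. All 6 markers of other tissues and cell types (Alb, Apoa1, Ttr, Myh6, Ptprc and Gata1) had no promoter peak in either replicate.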

How the data were processed

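DNase-seq peaks and footprints of 2 samples in 1 group were used, on mm10. The peak height is the signal the authors deposited, called in each sample alone per the file headers and descriptions; the sources used here give no aligner, caller, threshold or total depth. The deposited p-value columns hold a false discovery rate (q-value), up to 0.05, for stretches of bases, and the constant 0.01 for footprints. The looser peak list was used except where stated.

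The promoter window reached 500 bp on either side of any TSS of GENCODE M21, and positions refer to the start of the best-ranked transcript. Footprints were counted by midpoint. A match counted as footprinted if at least 50% of its letters lay in a footprint. Heights were whole multiples of a step (tolerance 0.02), of which exact Poisson intervals at 95% were computed; the members' heights held 68 to 2186 steps in replicate 1 and 81 to 1577 in replicate 2. Python 3.11.15, numpy 2.4.6, pandas 2.3.3, scipy 1.17.1, matplotlib 3.10.9 and bedtools 2.31.1 were used, and the scripts were tested on simulated data.

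The members and lists were chosen with earlier results of these data known. Genes named are the 10 tallest and 10 lowest members, those without a peak, the 5 with most and 5 with fewest footprints (6 by a tie), the 3 highest and 3 lowest ratios, paralogues with partners, and the 3 tallest of each other list with those lacking a peak; others were named after their values were seen. A few genes and a sequence are not reported here, though counts and medians include those genes. No test was made, since there was 1 group. Alternatives varied the replicate, peak list, window, start site, peak choice, footprint overlap and centring.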

Additional observations from a re-analysis of the deposited data

How the results depend on the processing

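Over 6 results, 35 alternatives were run, and 31 left the result within its replicate spread, within its SD over genes for the height ratio, or within 1.5 times for counts. Some of the 31 could hardly have moved. For heights and footprint numbers, leaving out a replicate was set against the spread of the same 2 replicates. The motif window stayed fixed when the promoter window or peak list changed. The count of footprinted matches could then change only through the genes included. The median position of the tallest peak, -7.5 bp over both replicates, was 6.5 bp from the most upstream TSS and -46 bp from the RefSeq start, an alternative chosen after seeing the data; the 62 open members with a RefSeq start had -10 bp from the reference TSS. The median centred log2 ratio of -0.02 became -0.43 when not centred, which is the shift of the whole library. Leaving out each replicate in turn gave 82 to 82 genes with a peak, median heights of 2.83 to 3.83, 5 to 7 footprints per promoter, positions of -8.5 to -4.5 bp, and 33 to 41 genes with a footprinted ETS, YY1 or SP/KLF match, where 28 required both replicates. That count was 21 when the match had to lie wholly in a footprint and 31 with the window at the RefSeq start, also chosen after seeing the data. The ratio needs both replicates, so leaving a replicate out gave no value. No paired analysis was possible because the labels give 1 group. With 2 samples of unknown depth, single footprints limited the counts, with 50.2% of them in replicate 1 and 69.6% in replicate 2 overlapped in the other replicate.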

Other observations

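Many ribosomal protein genes host small nucleolar RNAs, which guide the modification of ribosomal RNA, in their introns. The 30 members with a small nucleolar RNA in the gene had a median mean height of 3.79, and the 47 members that hold none and are not paralogues had 3.32. Of these 2 sets, 22 genes (73.3%) and 41 genes (87.2%) lay above the median of open genes.

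Heights by searched string are given as values, with no test. Members with the ZBTB33 palindrome had a median mean height of 4.61 (7 genes), against 3.32 for the other 75, and open genes with it had 3.64 (128 genes), against 2.21 for those without. For ETS the medians were 3.06 with a match (26 members) and 3.35 without (56 members), and over open genes 2.84 and 2.06. For CCAAT they were 4.04 with a match (25 members) and 3.17 without (57 members), and over open genes 2.62 and 2.02. For the pyrimidine run at the reference TSS they were 3.33 with it (30 members) and 3.38 without (52 members), and over open genes 2.02 and 2.28.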
